A study of Mus musculus with 22 samples.

Results

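Mammary tissue samples that were rich in adipocyte transcripts were set against samples that were poor in them, within a series of 22 mice. The 12 members, 6 fat-rich and 6 fat-poor mice, were chosen by measured values and not by treatment: all 22 mice were ranked by the mean log2(CPM + 1) of Adipoq, Plin1, Cidec and Lipe, and the 6 highest and 6 lowest were compared. CPM is the number of reads of a gene after each library was scaled to the same total, with lower values set to a floor of 1, and 1 was added before the logarithm was taken. The 4 ranking genes made the groups, so their values are given as a description with no test, and all other genes were tested for how they differed between the ends of the ranking.

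All mice were female C57BL/6J, 7 to 8 weeks old, and every animal, controls included, carried an orthotopic graft of EO771 mammary cancer cells in the left 4th mammary fat pad. Mice had either a running wheel with its hub or the hub alone (control) in the cage for 2 weeks before the graft and until the tissue was taken, 24 h after it. Each mouse also received liposomes by vein, 24 h before and again at engraftment, filled with PBS buffer or with clodronate, which kills phagocytes that swallow the liposomes. PBS liposomes went to 6 control and 6 wheel-running mice, clodronate liposomes to 5 of each kind, and the dissected tissue, graft and host together, was sequenced from the 3′ ends of its transcripts. EO771 is a line from the same mouse strain, so transcripts of graft and host cannot be told apart, and how far clodronate depleted phagocytes in each mouse was not tested.

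The mouse mammary gland lies in a pad of white adipose tissue, where adipocytes surround the epithelial ducts, blood vessels, nerves and, in the 4th pad, a lymph node. White adipocytes take up fatty acids released from lipoproteins, store them as triglyceride in a lipid droplet and release them again by lipolysis, and they secrete hormones such as adiponectin and leptin. Among the ranking genes, Adipoq encodes adiponectin, Plin1 the protein that coats the droplet, Cidec a protein that fuses droplets into large ones, and Lipe the hormone-sensitive lipase.

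The ranking scores of the fat-rich mice were 10.24 in wheel-running PBS mouse 6, 10.18 in wheel-running PBS mouse 1, 10.17 in control PBS mouse 3, 10.08 in control clodronate mouse 4, 10.00 in control clodronate mouse 1 and 9.91 in control PBS mouse 5. The fat-poor mice scored 9.38 in control PBS mouse 2, 9.31 in wheel-running clodronate mouse 5, 9.16 in wheel-running clodronate mouse 4, 9.08 in control clodronate mouse 3, 9.07 in wheel-running clodronate mouse 3 and 8.90 in control clodronate mouse 2. The ranking had no gap at its limits, since the mouse just outside the fat-rich end scored 9.85 and the mouse just outside the fat-poor end 9.40. Adipoq ranged from 1935 to 2656 CPM (median 2162) in fat-rich and from 865 to 1281 CPM (median 1078) in fat-poor mice. The mean log2 differences were 1.05 for Adipoq, 1.08 for Plin1, 0.82 for Cidec and 0.84 for Lipe. Every fat-rich mouse exceeded every fat-poor mouse in each of the 4 genes, which the choice of members largely fixes. In tissue RNA, fewer adipocytes and less RNA per adipocyte cannot be told apart.

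**Figure D1:**
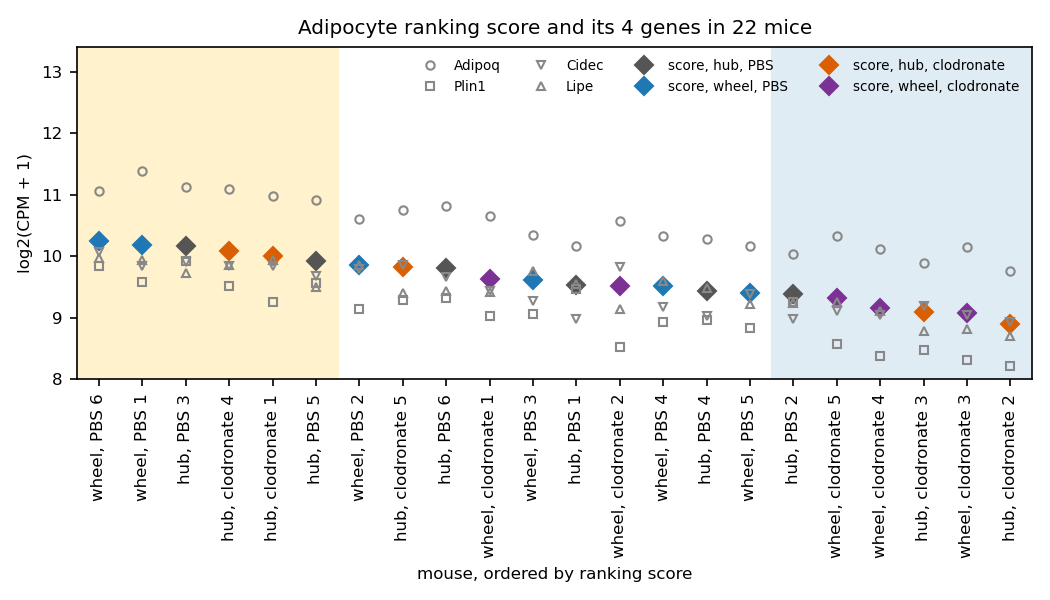
Ranking score (filled diamonds, colored by activity and liposome, with hub for control mice) and the log2(CPM + 1) of its 4 genes (open symbols) for each of the 22 mice, ordered by score. Yellow marks the 6 fat-rich mice, with scores of 9.91 to 10.24, and blue the 6 fat-poor mice, with scores of 8.90 to 9.38.

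The ends of the ranking were spread over all 4 treatment groups. By liposome, 4 of the 6 fat-rich mice and 1 of the 6 fat-poor mice had received PBS (Fisher's exact test, two-sided, p = 0.242, and 0.485 adjusted over the 2 factors). By activity, 2 of the 6 fat-rich and 3 of the 6 fat-poor mice had run on wheels (Fisher's exact test, two-sided, p = 1). The wheel-running clodronate group gave 3 fat-poor and 0 fat-rich mice, the wheel-running PBS group 2 fat-rich and 0 fat-poor, the control PBS group 2 fat-rich and 1 fat-poor, and the control clodronate group 2 of each. Group scores overlapped, at 9.80 ± 0.35 (SD, n = 6) for wheel-running PBS, 9.71 ± 0.31 (n = 6) for control PBS, 9.58 ± 0.55 (n = 5) for control clodronate and 9.34 ± 0.23 (n = 5) for wheel-running clodronate mice. Neither factor passed the test in so few mice. Because liposomes were uneven over the ends, fits with activity and liposome as terms were also made.

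Other tissues in the dissected samples varied along with the ranking. Depth was 13256467 to 20484578 reads over the 22 mice, a gene listed at the 1 CPM floor had at most 13 to 20 reads, and 60.8% to 64.6% of reads were assigned to genes in fat-rich against 57.4% to 63.2% in fat-poor mice. The mean log2(CPM + 1) over 18 lymphocyte and lymph node genes lay between 1.22 and 1.48 in all fat-rich mice, at 1.49 and 1.36 in control clodronate mice 3 and 2, and between 4.20 and 5.45 in the other 4 fat-poor mice, control PBS mouse 2 and wheel-running clodronate mice 3, 4 and 5. Those 4 mice and wheel-running PBS mouse 3, which ranked in the middle, were called lymph-node-rich (list mean above 3) and left out as an alternative. The remaining pair of fat-poor mice, control clodronate mice 2 and 3, had list means of 10.4 and 7.27 for skeletal muscle genes and 9.44 and 9.68 for epidermis genes, against 1.67 to 7.58 and 1.97 to 7.60 in fat-rich mice. Every fat-poor sample therefore held more lymph node, muscle or skin transcripts than most fat-rich samples, and the part of these tissues in each difference reported here was not tested. Luminal markers of mammary epithelium summed to 574.5 to 1951 CPM in fat-rich and 713.7 to 1307 CPM in fat-poor mice. Such transcripts were present at both ends, and the parts of graft and host in them cannot be told apart. All 22 libraries were labelled as separate mice, so p-values measure the spread between mice.

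**Figure D2:**
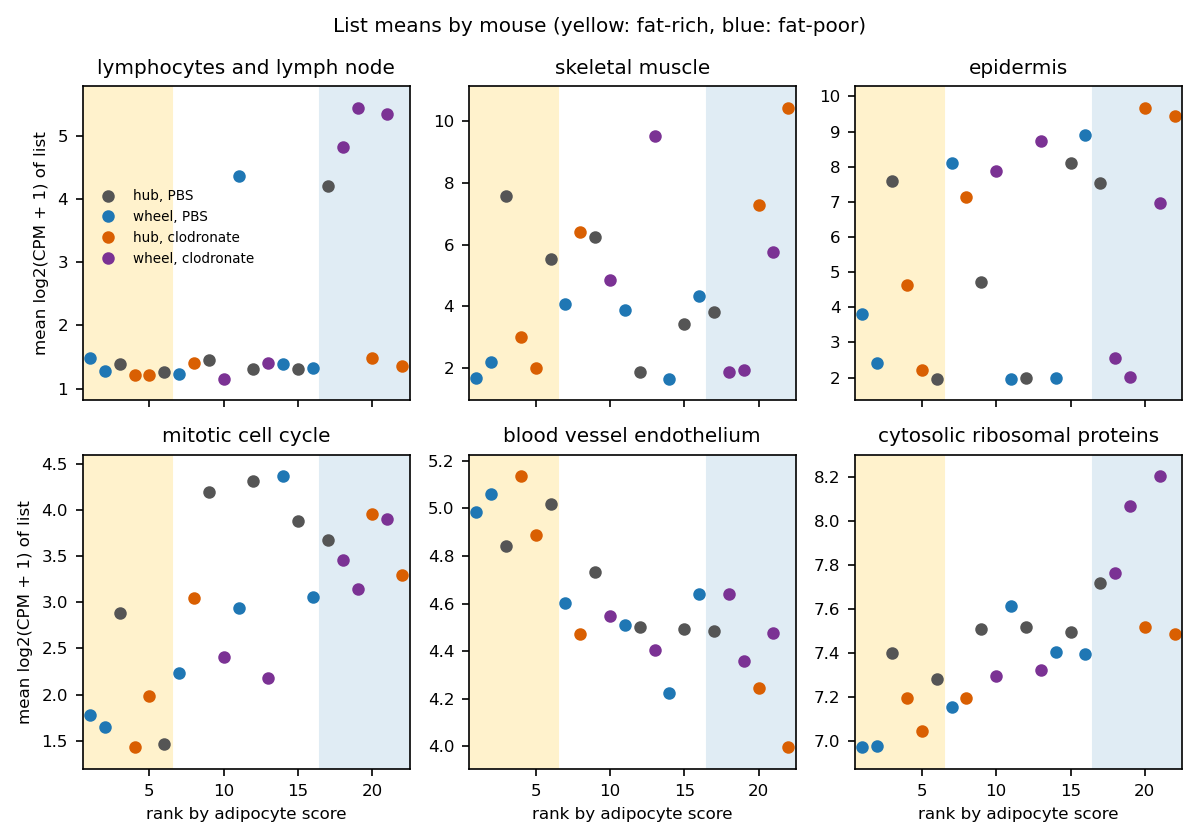
Mean log2(CPM + 1) of 6 gene lists in each mouse against its rank by adipocyte score, with rank 1 the richest, colored by activity and liposome. Lymph node genes exceeded a list mean of 3 in 5 mice, 4 of them fat-poor, while mitotic genes did not overlap between the ends (1.43 to 2.88 in fat-rich, 3.14 to 3.96 in fat-poor mice).

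A value above the floor in at least 5 mice was required for a test. Of the 15134 genes tested, 1526 differed between the ends of the ranking at an adjusted p of 0.05 by limma (10.1%), of which 794 were higher (5.25%) and 732 lower (4.84%) in fat-rich mice. The values of the groups did not overlap for 392 genes that were higher (2.59%) and 288 that were lower (1.9%). Across all genes tested, 48.6% had a difference above 0 and the median difference was -0.01. Rescaling each mouse to its reads assigned to genes shifted the balance to 596 higher and 915 lower, with a median of -0.08 over all genes. With activity and liposome in the fit, 268 genes were higher (1.77%) and 264 lower (1.74%). Without the lymph-node-rich mice, which left 2 fat-poor mice, both of them control clodronate mice, 828 genes were higher (5.47%) and 941 lower (6.22%). These shared 424 of the 794 genes higher in fat-rich mice, and 184 of the 732 lower.

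The 10 middle mice, which the comparison did not use, gave a separate look at the same association. The slope of each gene on the ranking score over these mice passed an adjusted p of 0.05 for 0 genes (0.0%) by limma, and an unadjusted p of 0.05 for 313 with positive and 141 with negative slopes. Of the 794 genes that were higher in fat-rich mice, 640 (80.6%) also had a positive slope in the middle mice, against 53.2% of all genes tested. Of the 732 lower genes, 459 (62.7%) had a negative slope. Whether these shares differed from each other was not tested. The slope on the score over all 22 mice differed between PBS and clodronate mice for 0 genes (0.0%) at an adjusted p of 0.05 by limma, with 397 and 568 genes on either side at an unadjusted p of 0.05.

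**Figure D3:**
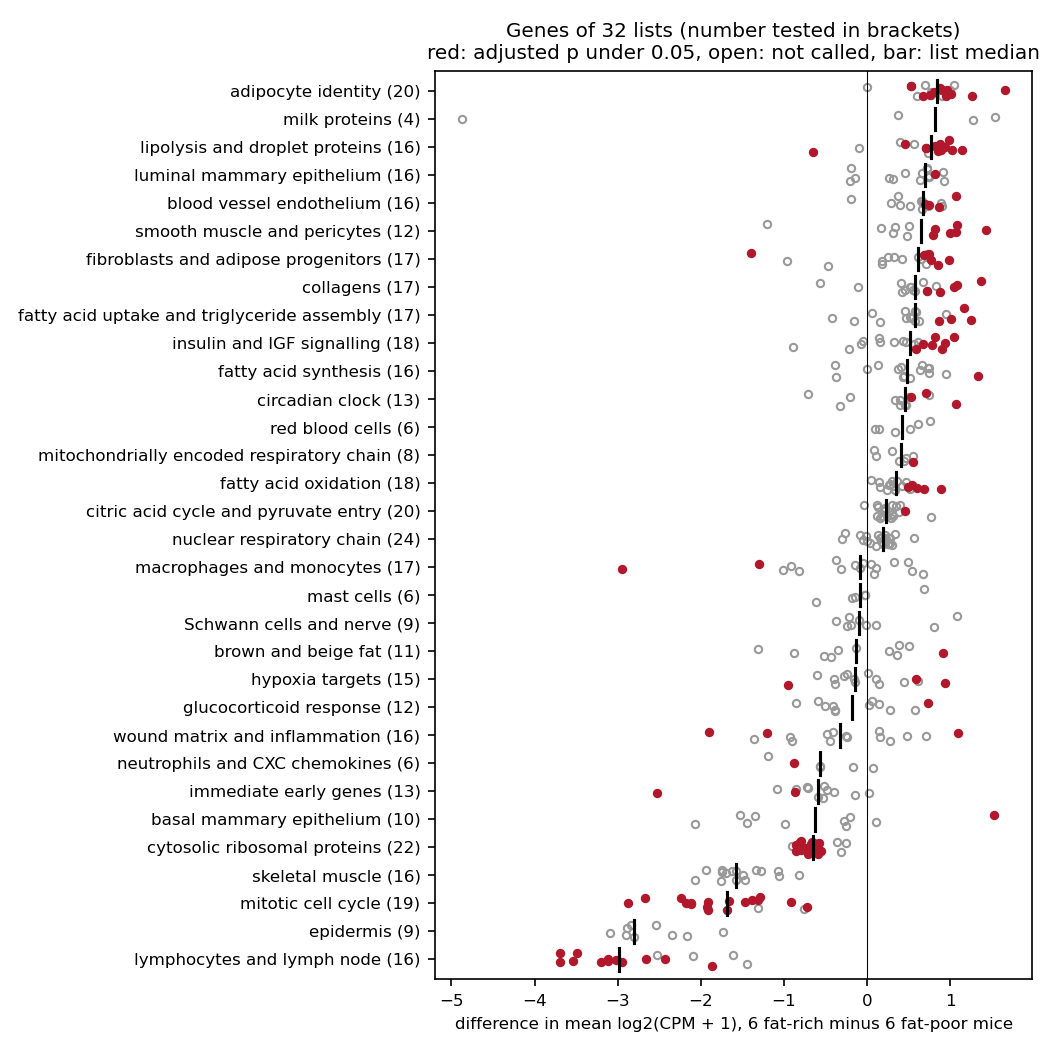
Difference in mean log2(CPM + 1) between 6 fat-rich and 6 fat-poor mice for the tested genes of 32 lists, ordered by list median (black bar), with called genes in red and the others open. Adipocyte, droplet, vessel and fibroblast lists lie to the right, with medians of 0.61 to 0.84, as do milk protein (0.82) and luminal epithelium (0.69) genes, and ribosomal, skeletal muscle, mitotic, epidermis and lymph node lists to the left, at -0.65, -1.58, -1.68, -2.80 and -2.98.

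The genes with the largest differences toward fat-rich mice were Npr3, Cxcl15, Slc6a13, Lep, B430219N15Rik and Sncg. Lep (ENSMUSG00000059201.12, chr6:29060220-29073877 in GRCm38, like all positions given here), which encodes the satiety hormone leptin, ranged from 109.9 to 353 CPM (median 279) in fat-rich and from 37 to 129 CPM (median 82.8) in fat-poor mice, a log2 difference of 1.66 ± 0.33 (SE, n = 6 per group; adjusted p = 0.00888). Control clodronate mouse 1 had the lowest leptin level among fat-rich mice, within the fat-poor range, and the other 5 fat-rich mice lay above every fat-poor mouse. Sncg, which encodes gamma-synuclein, a protein abundant in white adipocytes and peripheral nerves, was at 105 to 444 CPM (median 305) in fat-rich and 40 to 188 CPM (median 79.2) in fat-poor mice (1.61 ± 0.41, adjusted p = 0.0246). Npr3 encodes the clearance receptor that removes natriuretic peptides, hormones that stimulate lipolysis. Its level was 28.9 to 261 CPM (median 156) in fat-rich and 9.05 to 81.1 CPM (median 24.5) in fat-poor mice (2.20 ± 0.59, adjusted p = 0.0331), and the low fat-rich value was again that of control clodronate mouse 1. Cxcl15, a chemokine gene, differed by 1.80 ± 0.49 (adjusted p = 0.034), the transporter gene Slc6a13 by 1.74 ± 0.45 (adjusted p = 0.0283) and the antisense transcript B430219N15Rik by 1.62 ± 0.37 (adjusted p = 0.016). Whether counting used strand is not stated, so reads of an antisense gene and its partner cannot be told apart. Leaving out the lymph-node-rich mice ended the call for 5 of these genes and kept it for B430219N15Rik (2.04 ± 0.51, adjusted p = 0.0392). Differences were then smaller for Npr3 (0.73 ± 0.73, adjusted p = 0.579), Sncg (0.58 ± 0.48, 0.501), Slc6a13 (1.10 ± 0.69, 0.356) and Lep (0.99 ± 0.40, 0.161). That of Cxcl15 was not smaller (2.22 ± 0.69, adjusted p = 0.0776). With single mice left out in turn, the call of Npr3 ended without each of 9 of the 12. Those of Cxcl15, Slc6a13 and Sncg ended without each of 7, and Lep and B430219N15Rik kept theirs. With activity and liposome in the fit none of these genes was called by limma, with adjusted p from 0.0552 for Lep to 0.162 for Npr3.

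Adipocyte identity genes were read as a description of the groups, since they are expressed by the same cells as the ranking genes and their difference follows from how the groups were made. Of 20 tested, 12 were higher and 0 lower in fat-rich mice, with a median difference of 0.84, and 10 did not overlap between the groups. Plin4, a droplet protein gene, ranged from 588 to 1159.9 CPM (median 828) in fat-rich and from 243 to 491 CPM (median 350.4) in fat-poor mice, and Slc7a10, an amino acid transporter gene of white adipocytes, from 66.9 to 97.9 CPM (median 79.5) and from 28.3 to 50.3 CPM (median 40.9). Retn (resistin), Adrb3 (the beta-3 adrenergic receptor of adipocytes), Slc2a4 (the insulin-responsive glucose transporter GLUT4) and Cebpa (a transcription factor of adipocyte differentiation) were also higher, by 0.95, 0.96, 0.81 and 0.53. Of the 20 genes, which the ranking did not use, 19 had differences above 0, which describes the groups and is no separate support for their label. Of the 12 genes, 8 remained called without the lymph-node-rich mice and 5 with activity and liposome in the fit.

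Genes of lipolysis and the droplet, which are likewise expressed by the ranked cells, were mostly higher. Of 16 tested, 11 were higher and 1 lower, with a median of 0.77. The higher genes included Pnpla2, which encodes adipose triglyceride lipase (0.86), Abhd5, its co-activator (0.45), and G0s2, its inhibitor (0.87). Mgll, which encodes the lipase of the last step of triglyceride breakdown, had 1042 to 1339.8 CPM (median 1269) in fat-rich and 492 to 846 CPM (median 601) in fat-poor mice, without overlap (0.98 ± 0.16, adjusted p = 0.00259). The caveolae genes Cav1 (1.15 ± 0.24), Cavin1 (0.93) and Cavin2 (1.02 ± 0.14) encode parts of the membrane pits that are dense on adipocytes and on endothelium. Pde3b, the phosphodiesterase through which insulin restrains lipolysis, and Aqp7, a glycerol channel, were higher by 0.82 and 0.89. Of the 11 higher genes, 7 remained called without the lymph-node-rich mice and 7 with activity and liposome in the fit. Cav1 was called in neither fit (adjusted p of 0.104 and 0.0539 by limma).

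Genes for taking up fatty acids from the blood were among those that were higher. Of 17 genes of fatty acid uptake and triglyceride assembly, 4 were higher and 0 lower (median 0.58), and all 4 had no overlap between the groups. All 4 remained called without the lymph-node-rich mice and 3 with activity and liposome in the fit. Lpl encodes lipoprotein lipase, which frees fatty acids from circulating lipoproteins, and ranged from 4878 to 9057 CPM (median 7334) in fat-rich and from 2197 to 4501 CPM (median 2716) in fat-poor mice (1.25 ± 0.26, adjusted p = 0.0116). Gpihbp1 (ENSMUSG00000022579.10, chr15:75596628-75599481), which encodes the capillary protein that carries this lipase to the vessel lumen, was at 59.5 to 101 CPM (median 82.3) and 28.1 to 41.7 CPM (median 37.5) (1.16 ± 0.14, adjusted p = 0.000842). The middle mice, at 42.4 to 70.3 CPM, exceeded every fat-poor mouse and reached the lower fat-rich values, with a slope of 0.88 ± 0.47 (SE) per unit of score. Cd36, a fatty acid transporter gene, had 524 to 865 CPM (median 722) and 301 to 492 CPM (median 331) (1.01 ± 0.16, adjusted p = 0.00248). The fourth gene, Gpat3, encodes the acyltransferase that starts triglyceride assembly and was higher by 0.87.

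Of 16 genes of fatty acid synthesis 1 passed the test, Scd1, a share near the 5.25% of all genes called higher, and the list median was 0.48. Scd1 encodes the desaturase that makes monounsaturated fatty acids and ranged from 4382 to 6059 CPM (median 5722) in fat-rich and from 982 to 5959 CPM (median 2128) in fat-poor mice (1.33 ± 0.36, adjusted p = 0.0343). Among fat-poor mice, control PBS mouse 2 had 5959 CPM, within the fat-rich range, and the other 5 lay at 982 to 2561 CPM. In the middle mice 14 of the 16 slopes were negative, with a median of -1.59, against a positive difference for 13 of the 16 between the ends. Summed over the list, the level varied from 2489 to 16550 CPM among the fat-poor mice alone, wider than the 6203 to 16080 CPM of fat-rich mice. The call of Scd1 ended without each of 10 of the 12 mice in turn, all except control PBS mice 2 and 3, and also with activity and liposome in the fit (adjusted p = 0.191).

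For fatty acid oxidation 5 of 18 tested genes were higher and 0 lower, all 18 differences were above 0, and the median was 0.35. Of the 5 genes, 3 remained called without the lymph-node-rich mice and 1 with activity and liposome in the fit. Acads, a short-chain acyl-CoA dehydrogenase gene of mitochondria, differed by 0.89 ± 0.22 (adjusted p = 0.0246), and Etfb, an electron carrier gene, by 0.60 ± 0.16 (adjusted p = 0.0335). In the citric acid cycle 1 of 20 genes was higher, Sdha of succinate dehydrogenase (0.45 ± 0.13, adjusted p = 0.0425), a share near the 5.25% of all genes. That call ended without each of 11 of the 12 mice in turn and with activity and liposome in the fit (adjusted p = 0.208). Of 24 nuclear respiratory chain genes 0 were called by limma (2 at an unadjusted p of 0.05), with a median of 0.19. Among these, Atp5g3 had 565 to 805 CPM (median 659) in fat-rich and 474 to 799.9 CPM (median 538) in fat-poor mice (adjusted p = 0.255) and Atp5b a difference of 0.27 ± 0.13 (adjusted p = 0.203). Among 8 mitochondrially encoded genes mt-Nd5, a complex I subunit, was higher (0.55 ± 0.14, adjusted p = 0.0287), and was not called without the lymph-node-rich mice (0.0831) or with activity and liposome in the fit (0.159). Among 11 genes of brown and beige fat 1 passed the test, Ebf2, a transcription factor also used in white fat precursors (0.92 ± 0.19, adjusted p = 0.0103, and 0.0711 with activity and liposome), and the list median was -0.13.

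Insulin and IGF signaling genes were higher for 7 of 18 tested and lower for 0 (median 0.51). Irs1, which encodes an adaptor that couples the insulin receptor to its kinases, had 50.7 to 95.4 CPM (median 75.3) in fat-rich and 19 to 51.7 CPM (median 36.4) in fat-poor mice (1.04 ± 0.21, adjusted p = 0.00932). Igf1, a growth factor gene that adipose tissue also transcribes, had 183 to 293 CPM (median 270.1) and 93.3 to 177 CPM (median 119.8) (0.94 ± 0.17, adjusted p = 0.00466), without overlap. Akt2, Pik3r1, Igfbp4 and Igfbp5, kinase components and IGF binding proteins, were higher by 0.59 to 0.82. Of the 7 genes, 5 remained called without the lymph-node-rich mice and 3 with activity and liposome in the fit. Irs1 was called in neither fit (adjusted p of 0.0754 and 0.0709 by limma), and its slope in the middle mice was -0.02.

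Blood vessel genes were a further group without a member among the ranking genes. Of 16 endothelial genes 4 were higher and 0 lower, with a median of 0.67 and 15 differences above 0, and the list mean was 4.84 to 5.13 in fat-rich and 4.00 to 4.64 in fat-poor mice. Esam, an adhesion molecule gene of endothelial junctions, ranged from 49.6 to 86.6 CPM (median 66.6) in fat-rich and from 23.9 to 39.5 CPM (median 31.3) in fat-poor mice (1.07 ± 0.16, adjusted p = 0.00216). Cdh5, which encodes VE-cadherin, the cadherin of the same junctions, was at 43.7 to 69.2 CPM (median 48.4) and 21 to 33.5 CPM (median 27.8) (0.86 ± 0.14, adjusted p = 0.0033). Neither gene overlapped between the groups. Flt1, a receptor gene for VEGF, differed by 0.74 ± 0.16 (adjusted p = 0.0139), and its ranges overlapped. All 4 genes remained called without the lymph-node-rich mice, when 9 of the 16 were higher and the median was 0.83, and 3 of the 4 with activity and liposome in the fit.

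Genes of the cells that wrap the vessels are in part shared with other cells. Of 12 smooth muscle and pericyte genes 6 were higher and 0 lower (median 0.65). Rgs5, a pericyte marker that restrains G-protein signaling, had 123 to 191 CPM (median 149) in fat-rich and 47.9 to 92.5 CPM (median 73.5) in fat-poor mice, without overlap (1.07 ± 0.16, adjusted p = 0.00214). The contractile genes Cnn1 (1.43 ± 0.32, adjusted p = 0.0157), Myh11 (1.00), Acta2 (0.82) and Tagln (0.79) and the adhesion gene Mcam (1.08 ± 0.28, adjusted p = 0.0269) overlapped between the groups. Acta2 and Tagln are also expressed by the basal cells of mammary ducts, and which cells gave the transcripts of any of the contractile genes was not tested. Of the 6 genes 5 remained called without the lymph-node-rich mice and 2 with activity and liposome in the fit.

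Among genes of fibroblasts and adipose progenitors 5 of 17 were higher and 1 lower (median 0.61). Lum, a small proteoglycan gene of collagen fibrils, had 53.5 to 94.5 CPM (median 82.7) in fat-rich and 35.2 to 50.2 CPM (median 41.8) in fat-poor mice, without overlap (0.85 ± 0.15, adjusted p = 0.00425), and Gsn, which encodes the actin-severing protein gelsolin, differed by 0.99 ± 0.25 (adjusted p = 0.025). Thy1 was the lower gene, at 10 to 25.3 CPM (median 12.5) and 18.8 to 69.7 CPM (median 42.1) (-1.40 ± 0.33, adjusted p = 0.0189). Thy1 marks fibroblasts but also T cells, and without the lymph-node-rich mice its difference was -0.47 ± 0.31 (adjusted p = 0.387). Of the 5 higher genes 1 remained called in that fit, Lum (0.99 ± 0.21, adjusted p = 0.0248), and 2 with activity and liposome as terms.

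Collagens were higher for 5 of 17 genes and lower for 0 (median 0.58), and the 5 were Col4a1, Col4a2, Col5a2, Col5a3 and Col15a1. Collagen IV and XV belong to the basement membrane that surrounds each adipocyte and vessel, and collagen V to thin fibrils. Col4a2 ranged from 147 to 181 CPM (median 156) in fat-rich and from 52.9 to 109.7 CPM (median 73.5) in fat-poor mice, without overlap (1.08 ± 0.14, adjusted p = 0.00119), and Col15a1 from 46.3 to 156 CPM (median 91.6) and from 19 to 52.8 CPM (median 35), with overlap (1.37 ± 0.27, adjusted p = 0.00744). Col5a3 differed by 1.05 ± 0.27 (adjusted p = 0.0258). The fibril-forming genes Col1a1, Col1a2 and Col3a1 did not pass the test. Without the lymph-node-rich mice 3 of the 5 remained called, Col4a2 among them (1.09 ± 0.10, adjusted p = 0.00151), and 2 with activity and liposome in the fit. Col15a1 was called in neither fit (adjusted p of 0.0564 and 0.0513 by limma).

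**Figure D4:**
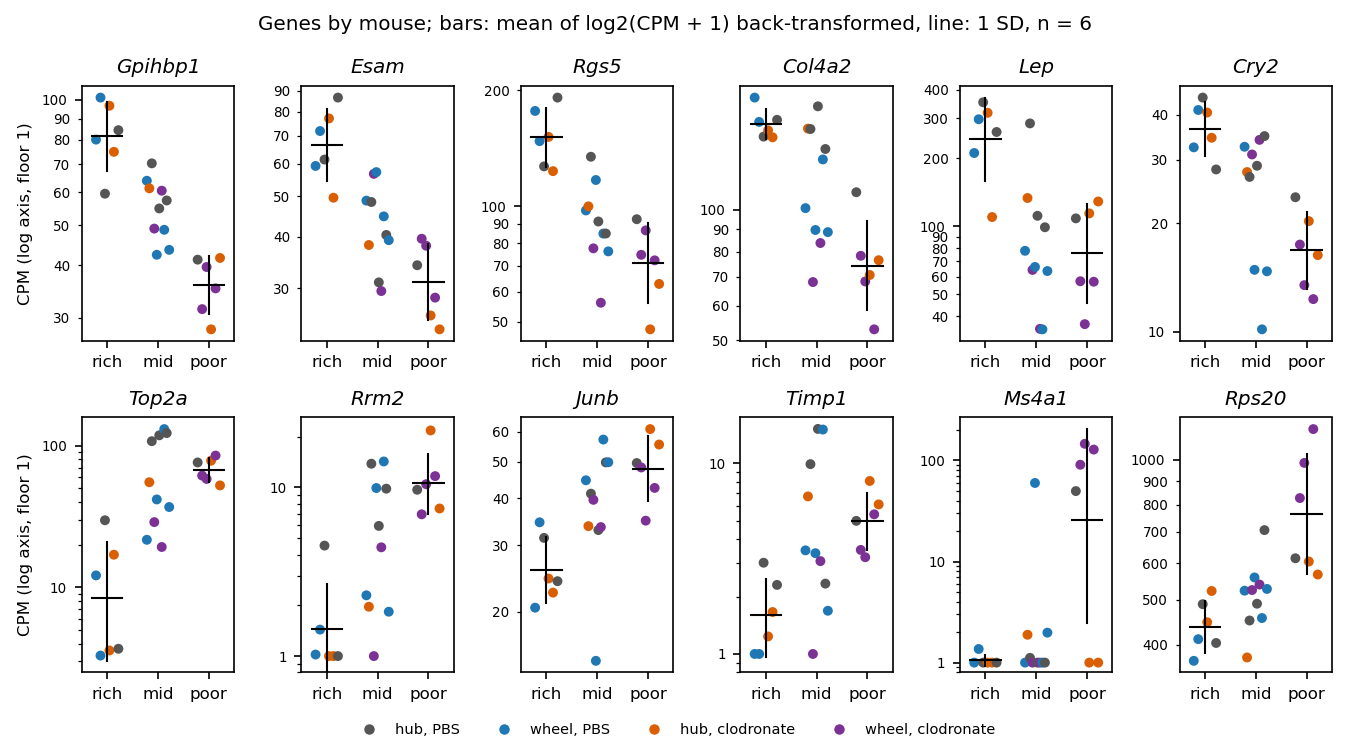
CPM (log axis) in each mouse for 12 genes, in fat-rich, middle and fat-poor mice, colored by activity and liposome, with the back-transformed mean of log2(CPM + 1) and 1 SD for the 6 mice at each end. The groups do not overlap for Gpihbp1, Esam, Rgs5, Col4a2, Cry2, Top2a, Rrm2, Junb, Timp1 and Rps20, overlap for Lep, and for Ms4a1 the high fat-poor values are those of the 4 lymph-node-rich mice.

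Of 16 luminal epithelium genes 13 had differences above 0, against 48.6% of all genes tested, with a median of 0.69. Of these 16 genes 1 was called, a share near the 5.25% of all genes called higher. This was Esr1, which encodes the estrogen receptor, at 54 to 72.1 CPM (median 67.1) in fat-rich and 20.9 to 60.5 CPM (median 39.7) in fat-poor mice (0.81 ± 0.21, adjusted p = 0.025). Esr1 is also expressed by stromal cells of fat. Of 10 basal genes, Oxtr, the oxytocin receptor gene, was higher without overlap, at 43.7 to 75.8 CPM (median 51.6) and 3.98 to 29.2 CPM (median 21.8) (1.53 ± 0.36, adjusted p = 0.0186), and its slope in the middle mice was -0.03. With activity and liposome in the fit neither Esr1 (adjusted p = 0.0906) nor Oxtr (0.0733) was called. The basal list had a median of -0.63, and without the lymph-node-rich mice 6 of its genes were lower. Its keratin genes are shared with the epidermis, and the pair of fat-poor mice in that fit held the most epidermis transcripts. Of 4 milk protein genes tested, with a median of 0.82, 0 were called by limma, and at an unadjusted p of 0.05 there were 2 higher and 1 lower. Mfge8 had 239 to 731 CPM (median 402) and 144 to 563 CPM (median 374) (adjusted p = 0.536), and Glycam1, a milk gene that lymph node venules also express, 1.32 to 4.78 CPM (median 2.39) and 1.04 to 985 CPM (median 468) (adjusted p = 0.0502).

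Genes lower in fat-rich mice were led by lymphocyte transcripts. Among the 6 largest differences were those of Trbc2, Dapl1, Ighd, Fcmr and Ms4a1, of which Trbc2 encodes a T cell receptor chain, Ighd and Fcmr the IgD heavy chain and a receptor for IgM on B cells and Ms4a1 the B cell antigen CD20. Of 16 lymphocyte and lymph node genes tested 12 were lower and 0 higher, with a median of -2.98. Ms4a1 had 1 to 1.36 CPM (median 1) in fat-rich and 1 to 146 CPM (median 70.1) in fat-poor mice (-3.69 ± 1.04, adjusted p = 0.0393). Fcmr and the complement receptor gene Cr2 were at the floor in all 6 fat-rich mice and Fcmr reached 142 CPM in fat-poor mice. Cr2 exceeded the floor in the lymph-node-rich mice alone, so it was tested only because of them, and its difference is a description. The high values belonged to the 4 lymph-node-rich fat-poor mice alone. Without them Cr2 was at the floor in all 8 remaining mice, which left nothing to test. Fcmr, Ighd and Ms4a1 were not called by limma in those mice (adjusted p of 0.335 to 0.792), the list median was 0.00, and 3 genes of the list remained lower. Since these mice were left out by the mean of this same list, which holds Ms4a1 and Cr2, that loss follows from the exclusion. With activity and liposome in the fit 3 of the 12 remained called.

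Of the leading lower genes, Trbc2 and Dapl1 remained called without the lymph-node-rich mice. The pair of fat-poor mice in that fit held the most epidermis transcripts. Neither gene was called for its slope on the score over all mice with the lymphocyte, muscle and epidermis list means as terms. That slope was -0.996 for Trbc2 (adjusted p = 0.173 by limma) and -0.215 for Dapl1 (adjusted p = 0.91), in a fit chosen after seeing the data. Trbc2 had 2.16 to 9.1 CPM (median 2.52) in fat-rich and 17.4 to 206 CPM (median 87.9) in fat-poor mice, without overlap (-4.12 ± 0.55, adjusted p = 0.00122), and the difference against control clodronate mice 2 and 3 alone was -2.47 ± 0.48 (adjusted p = 0.0181). It has a near-identical neighbor in Trbc1, between which reads can be split. Dapl1, a gene of epithelial differentiation expressed in skin and also in naive T cells, had 1 to 138 CPM (median 4.68) and 37.6 to 376 CPM (median 139) (-4.10 ± 0.92, adjusted p = 0.0151), and without the lymph-node-rich mice differed by -5.55 ± 1.47 (adjusted p = 0.048). The highest fat-rich value, in control PBS mouse 3, exceeded 3 of the 6 fat-poor values. Among middle mice Dapl1 ranged from 1.17 CPM in control PBS mouse 1 to 410 CPM in wheel-running clodronate mouse 2. The epidermis list means of these mice were 1.98 and 8.74, and the part of epidermis in the Dapl1 values was not tested.

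Myeloid genes gave few calls. Of 17 macrophage and monocyte genes 2 were lower and 0 higher, and the median was -0.08. The lower ones were Ly6c2, of inflammatory monocytes and some lymphocytes (-2.95 ± 0.76, adjusted p = 0.0275), and Ctss, a lysosomal protease gene of antigen-presenting cells (-1.30 ± 0.36, adjusted p = 0.0345). Neither was called without the lymph-node-rich mice, with adjusted p of 0.65 and 0.817, or with activity and liposome in the fit. The list mean was 3.92 to 4.81 in fat-rich and 3.87 to 5.11 in fat-poor mice. In the middle mice all 17 slopes on the score were above 0, with a median of 1.21, and 0 passed the limma threshold of 0.05, whether adjusted or unadjusted. Of 6 genes of neutrophils and CXC chemokines, S100a9, an alarmin gene of neutrophils, was lower, at 1 to 2.95 CPM (median 1) and 1.6 to 5.72 CPM (median 3.16) (-0.88 ± 0.25, adjusted p = 0.0424), at or near the floor in most mice. Mast cell, Schwann cell and red blood cell lists had 0 genes called by limma, with medians of -0.09, -0.10 and 0.42 and 1, 2 and 1 genes at an unadjusted p of 0.05. Among the most abundant of their genes were Tpsb2, a mast cell tryptase (-0.02 ± 0.30, adjusted p = 0.975), Kit, the receptor for stem cell factor (0.69 ± 0.41, adjusted p = 0.313), Mbp and Pmp22 of myelin (-0.22 ± 0.13 and 0.80 ± 0.27, adjusted p = 0.329 and 0.0811) and the hemoglobin genes Hbb-bs and Hba-a1 (0.52 ± 0.30 and 0.75 ± 0.32, adjusted p = 0.304 and 0.156), the last of which have near-identical copies.

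Muscle and skin transcripts varied between single samples. Of 16 skeletal muscle genes 0 were called by limma with a median of -1.58, and of 9 epidermis genes 0 with a median of -2.80, and in both lists 0 passed an unadjusted p of 0.05. Acta1, which encodes skeletal alpha-actin, had 9.57 to 836 CPM (median 33.7) in fat-rich and 7.35 to 6082 CPM (median 139) in fat-poor mice (adjusted p = 0.703), and Myh4, a fast myosin gene, 3.23 to 676 CPM (median 10.4) and 3.28 to 5284 CPM (median 111) (adjusted p = 0.56). Krt10, a keratin gene of differentiated epidermis, had 7.49 to 993 CPM (median 33.4) and 13.6 to 4443 CPM (median 842) (adjusted p = 0.238), and its relative Krt77 a difference of -2.90 ± 1.62 (adjusted p = 0.28). Against control clodronate mice 2 and 3 alone, 8 of 9 epidermis genes were lower in fat-rich mice.

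**Figure D5:**
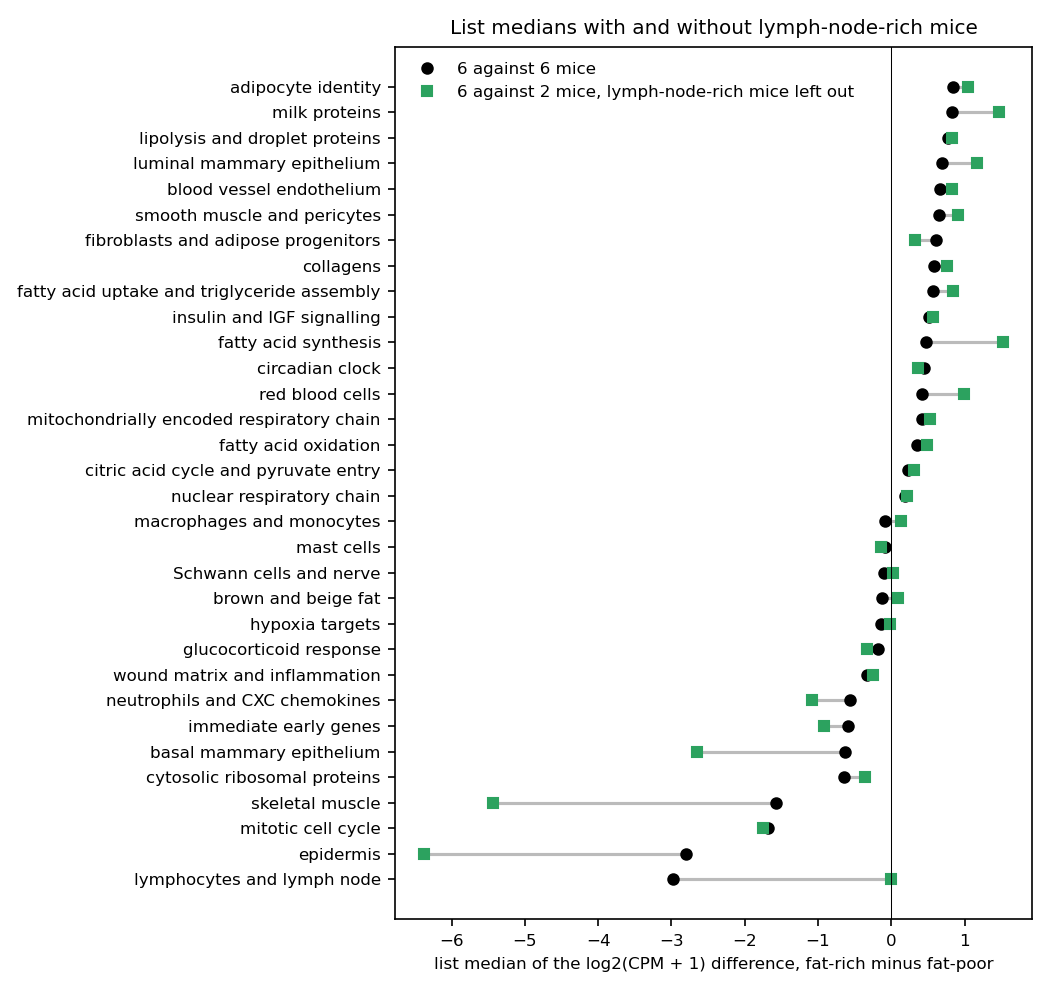
Median difference in log2(CPM + 1) of 32 gene lists between fat-rich and fat-poor mice, for 6 against 6 mice (circles) and for 6 against the 2 fat-poor mice that were not lymph-node-rich (squares). The mitotic median was -1.68 with all mice and -1.76 without the lymph-node-rich mice, that of ribosomal protein genes moved from -0.65 to -0.36, and that of lymphocyte genes from -2.98 to 0.00.

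Mitotic genes were lower in fat-rich mice for 17 of the 19 tested, and 0 were higher. Their median was -1.68, 12 of them did not overlap between the groups, and the list mean was 1.43 to 2.88 in fat-rich and 3.14 to 3.96 in fat-poor mice. Top2a (ENSMUSG00000020914.17, chr11:98992943-99024189), which encodes the topoisomerase that untangles chromosomes, had 3.3 to 29.7 CPM (median 7.91) in fat-rich and 52.4 to 85.1 CPM (median 68.7) in fat-poor mice (-2.87 ± 0.45, adjusted p = 0.0024). Birc5 (ENSMUSG00000017716.15, chr11:117849251-117855743), which encodes survivin of the mitotic chromosomal passenger complex, had 1 to 7.27 CPM (median 1.92) and 11.1 to 38 CPM (median 22.9) (-2.67 ± 0.43, adjusted p = 0.00277). Rrm2 (ENSMUSG00000020649.11, chr12:24708241-24714146), a subunit of the reductase that supplies nucleotides for DNA synthesis, had 1 to 4.52 CPM (median 1.01) and 6.93 to 21.8 CPM (median 10.1) (-2.24 ± 0.32, adjusted p = 0.00161). Control PBS mouse 3, which also held the most muscle and epidermis transcripts of the fat-rich mice, had the highest mitotic level among them.

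Against control clodronate mice 2 and 3 alone, the pair of fat-poor mice with little lymph node RNA, all 19 differences were below 0 with a median of -1.76, 6 of the 17 genes remained called, and Top2a differed by -2.80 ± 0.81 (adjusted p = 0.0636). With activity and liposome in the fit 13 of the 17 remained called. In the middle mice 15 of 19 slopes were negative, and their list means of 2.18 to 4.37 spanned a wider range than those of either end. EO771 cells, lymph node, epidermis and duct epithelium can all hold dividing cells, and the part of each was not tested.

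Because the mitotic genes moved together, the 250 bases before their transcription start were searched in RefSeq promoter windows of GRCm38 for letters known from cell cycle promoters, on both strands. Of the 19 genes 16 had a window. The CCAAT letters were present in 15 of these 16 (93.8%). Shares were 34.5% of the first windows of all 27025 genes and 35.9% of those of 10987 tested genes. The letters TTTGAA or TTCGAA, core of the cell cycle homology region, were present in 6 of the 16 (37.5%). Their shares were 17.4% of all genes and 12.5% of tested genes. The 120 bases before the start are shown for the 3 mitotic genes with the largest differences, 5′ to 3′ in the direction of the gene, with those letters or their reverse complements in capitals. Top2a lies at chr11:99024190-99024309 on the minus strand, Birc5 at chr11:117849117-117849236 and Rrm2 at chr12:24708134-24708253 on the plus strand.
Top2a: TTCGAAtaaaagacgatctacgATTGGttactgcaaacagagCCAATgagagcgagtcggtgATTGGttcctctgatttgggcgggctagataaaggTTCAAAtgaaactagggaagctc
Birc5: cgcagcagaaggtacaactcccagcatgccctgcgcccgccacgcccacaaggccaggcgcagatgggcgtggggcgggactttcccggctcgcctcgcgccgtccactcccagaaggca
Rrm2: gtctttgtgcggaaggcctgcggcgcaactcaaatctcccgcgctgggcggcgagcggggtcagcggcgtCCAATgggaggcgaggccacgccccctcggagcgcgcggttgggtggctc
Top2a held 3 CCAAT matches and 2 of the other letters in this stretch, Rrm2 a single CCAAT match and Birc5 none. These matches describe the letters in the windows and do not show that a factor binds there.

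Cytosolic ribosomal protein genes were lower in fat-rich mice for 18 of 22 tested and higher for 0, with a median of -0.65 and a list mean of 6.97 to 7.40 in fat-rich and 7.49 to 8.20 in fat-poor mice. Rps20 had 369.8 to 522 CPM (median 429.6) in fat-rich and 567 to 1164 CPM (median 721) in fat-poor mice, without overlap (-0.80 ± 0.18, adjusted p = 0.016), while Rps24 differed by -0.85 ± 0.21 (adjusted p = 0.0244) and Rps27 by -0.85 ± 0.23 (adjusted p = 0.0323). The 3 wheel-running clodronate mice, which were lymph-node-rich, had the highest list means, at 7.76 to 8.20. Without the lymph-node-rich mice 1 of the 18 genes remained called and the median was -0.36, and with activity and liposome in the fit 2 remained. Ribosomal protein genes have many processed copies in the genome, so reads of their 3′ ends can be lost to multiple mapping.

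Immediate early genes, which respond within minutes to stimulation, were lower for 2 of 13 and higher for 0, with a median of -0.59 and 12 of 13 differences below 0. Egr3, a zinc finger factor gene, had 1 to 11.2 CPM (median 1.9) in fat-rich and 9.91 to 36 CPM (median 17.8) in fat-poor mice (-2.53 ± 0.47, adjusted p = 0.00606). Junb, which encodes a subunit of AP-1, had 20.5 to 34.5 CPM (median 24.3) and 34.9 to 61 CPM (median 48.9) (-0.87 ± 0.16, adjusted p = 0.00606), without overlap. Both remained called without the lymph-node-rich mice (Junb -1.14 ± 0.20, adjusted p = 0.0139) and with activity and liposome in the fit (Junb -0.98, adjusted p = 0.0221). Against the pair of fat-poor mice that remained, 5 of the 13 genes were lower and all 13 differences were below 0.

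Clock genes were higher for 3 of 13 and lower for 0 (median 0.45), and none of the 3 overlapped between the groups. Cry2, a repressor of the clock, had 28.2 to 44.7 CPM (median 37.6) in fat-rich and 12.3 to 23.6 CPM (median 16.9) in fat-poor mice (1.07 ± 0.17, adjusted p = 0.00274). Per3, a period gene, had 43.3 to 58 CPM (median 55) and 28.3 to 42.2 CPM (median 29.6) (0.71 ± 0.12, adjusted p = 0.00381), and Tef, a clock output factor gene, differed by 0.53 ± 0.12 (adjusted p = 0.0166). Cry2 and Per3 remained called without the lymph-node-rich mice and with activity and liposome in the fit. The hour at which tissue was taken from each mouse is not given in the labels, so its part was not tested. Of 12 glucocorticoid response genes 1 was called, a share near the 5.25% of all genes called higher. The list median was -0.18, with 6 differences above 0. The called gene was Klf9, a transcription factor gene induced by these hormones. It was higher without overlap, at 323 to 457 CPM (median 404) and 207 to 304 CPM (median 229) (0.73 ± 0.13, adjusted p = 0.00409), and was not called without the lymph-node-rich mice (adjusted p = 0.0659).

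Hypoxia targets were divided: of 15 tested 2 were higher and 1 lower, the latter a share near the 4.84% of all genes, with a median of -0.14. Bnip3, a mitophagy receptor gene, had 231 to 358 CPM (median 259) in fat-rich and 86.1 to 195 CPM (median 151) in fat-poor mice (0.93 ± 0.17, adjusted p = 0.00569). Vegfa, the vascular growth factor gene, had 50.5 to 75.3 CPM (median 57.2) and 35.1 to 45 CPM (median 38.5) (0.59 ± 0.12, adjusted p = 0.00746), and neither gene overlapped. Slc2a1, which encodes the glucose transporter GLUT1, was lower (-0.95 ± 0.27, adjusted p = 0.0413). Without the lymph-node-rich mice none of the 3 was called, at 0.67 ± 0.18 for Bnip3 (adjusted p = 0.0551), 0.56 ± 0.15 for Vegfa (0.0543) and -1.31 ± 0.40 for Slc2a1 (0.072). With activity and liposome in the fit Bnip3 and Slc2a1 remained called. The call of Slc2a1 ended without each of 10 of the 12 mice in turn, while Bnip3 and Vegfa kept theirs without each mouse.

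Wound matrix and inflammation genes were mixed as well, with 1 of 16 higher (near the 5.25% of all genes), 2 lower and a median of -0.33. Timp1, an inhibitor of matrix proteases, had 1 to 3.01 CPM (median 1.45) in fat-rich and 3.22 to 8.09 CPM (median 5.2) in fat-poor mice, without overlap but close to the floor (-1.20 ± 0.25, adjusted p = 0.0095), and remained called without the lymph-node-rich mice (-1.62 ± 0.30, adjusted p = 0.0153). Ccl2, a chemokine gene that attracts monocytes, had 1 to 1.44 CPM (median 1.03) and 1.89 to 18.2 CPM (median 9.32) (-1.90 ± 0.47, adjusted p = 0.0221), again without overlap, and the 1 CPM floor compresses such differences. In the middle mice both genes had slopes above 0, 1.30 for Timp1 and 1.29 for Ccl2, opposite to the difference between the ends. Lox, which encodes the oxidase that crosslinks collagen, was higher (1.09 ± 0.25, adjusted p = 0.0154). Neither Ccl2 (-1.72 ± 0.54, adjusted p = 0.082) nor Lox (0.94 ± 0.37, adjusted p = 0.153) was called without the lymph-node-rich mice, and with activity and liposome in the fit only Timp1 of the 3 remained called.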

How the data were processed

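Libraries of transcript 3′ ends of mammary tissue from 22 mice were aligned by the authors with STAR 2.5.3a to GRCm38, per the submitters' processing notes; how reads were assigned to genes is not given in the sources used here. The deposited values are a signal, CPM relative to all reads of a library, in which values below 1 CPM had been set to 1. That floor corresponds to 13 to 20 reads at depths of 13256467 to 20484578 reads, and since reads under it are lost, no count test was run. Rows for unmapped, multiply mapping, unassigned and ambiguous reads were kept out of tests; 57.4% to 64.6% of reads were assigned to genes. Of 52526 symbols, 94.5% are in GENCODE M21, which gave positions, and 106 are listed more than once.

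Groups came from the ranking score, treatments from the labels. Genes above 1 CPM in at least 5 of 22 mice, without the 4 ranking genes, were tested with limma 3.58.1 (R 4.3.3) on log2(CPM + 1) with a variance trend and Benjamini-Hochberg adjustment over all 15134 genes, called at 0.05. Differences on this scale understate the change of low genes. Python 3.11.15, numpy 2.4.6, pandas 2.3.3 and scipy 1.17.1 were used, and the fits were tested on simulated data. The middle-mouse slope and its difference between liposomes were fitted the same way. The members and 32 lists (491 entries, 486 of them in the files, the other 5 alternative symbols of listed genes) were chosen with earlier results of these data known. Named genes were the 6 largest called differences in each direction with a mean of at least 5 CPM in the higher group, up to 3 called genes of each list, or its 2 most abundant where none was called, and the ranking genes, except that some are not reported here. Other members of a list were named after their values were seen. Alternatives were other pseudocounts, filters, scalings, covariates, numbers of mice per end, a replicate block, and each mouse or the lymph-node-rich mice left out.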

Additional observations from a re-analysis of the deposited data

Results flagged for a closer look

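Of 72 sets tested (the fat-rich or fat-poor mice by the mean log2(CPM + 1) of each gene list, by ranking score or by the share of reads assigned to genes, and each treatment group by ranking score), 3 held a mouse whose distance from the rest passed Dixon's 95% limit, where chance gives about 1 in 20, or 3.6. All 3 were low values among fat-rich mice. Control clodronate mouse 4 had a mean of 6.19 over the mitochondrially encoded genes, below the next value of 6.44. Control PBS mouse 3 had a mean of 4.46 over luminal mammary epithelium genes, below the next value of 5.62, and a mean of 2.31 over mast cell genes, below the next value of 2.75. The same mouse held the most muscle and epidermis transcripts of the fat-rich mice (list means of 7.58 and 7.60), and the part of these was not tested.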

How the results depend on the processing

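The count of 1526 genes (794 higher, 732 lower in fat-rich mice) stayed within 1.5 times under other pseudocounts, no variance trend, upper-quartile or assigned-read scaling and 7 mice per end. It was 532 (268 higher, 264 lower) with activity and liposome as terms and 963 (631 and 332) for the slope on the score over 22 mice with group means. Fewer genes were lower with 5 mice per end (365) and without a filter (483, with 19165 tested). Leaving out single mice gave totals of 883 to 2011, with 491 to 855 higher and 386 to 1163 lower: 883 without wheel-running PBS mouse 6, 887 without wheel-running PBS mouse 1, 915 without control clodronate mouse 4, 925 without wheel-running clodronate mouse 3 and 2011 without control clodronate mouse 2. Of the 66 named genes that were called, 41 kept their call without each mouse and 25 lost it without at least 1.

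Labels number the mice within each group. Deviations of mice with the same number in different groups had a mean correlation near 0 with a wide range (31 pairs, mean r = 0.05, -0.39 to 0.52, 12 over 0.1). The labels do not say whether the numbers pair mice, and a mean with this range does not settle it. The replicate block left 0 genes called by limma (0 higher, 0 lower), with 1462 higher and 1345 lower at an unadjusted p of 0.05. The replicate block fits 6 numbers with 12 mice. Under it Mfge8 was -0.059, Acta1 2.38, Myh4 2.44, Krt10 0.21 and Krt77 0.48, opposite to their differences without it, none of which was called. The slope difference between liposomes had 0 genes called with or without it, and the middle-mouse slope 0 under every alternative tried for it.

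Chosen after seeing the data were fits with the lymphocyte list mean as a term (2056, 926 higher and 1130 lower), on PBS mice alone (40, 31 higher and 9 lower) or clodronate mice alone (66, 46 higher and 20 lower), on 17 mice without the lymph-node-rich ones, and on 22 mice with the lymphocyte, muscle and epidermis means as terms (334, 256 higher and 78 lower). The fits on single liposomes used fewer mice, and the cause of the other changes was not tested.

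Several differences changed sign. For genes of the lymphocyte list this follows from leaving out mice, or fitting a term, by the mean of that list. Without the lymph-node-rich mice Ighd was 0.089, Ms4a1 0.040 and Glycam1 0.44. With the lymphocyte mean as a term Ighd was 0.23, Ms4a1 0.15, Glycam1 0.48 and Cr2 0.11. Over the 17 mice Ms4a1 was 0.00167 and Glycam1 0.26. With 3 list means as terms Ighd was 0.11, Fcmr 0.00902, Ms4a1 0.11, Glycam1 0.76, Cr2 0.021, Acta1 0.92, Myh4 0.36, Kit -0.13, Mbp 0.11, Krt10 0.39 and Krt77 0.49. In PBS mice alone Acta1 was 1.98, Myh4 1.23, Kit -0.12 and Mbp 0.16. Leaving out single mice moved Acta1 between -1.86 and 0.047, above 0 without control clodronate mouse 2, and Tpsb2 between -0.17 and 0.19. Tpsb2, at -0.02 with all mice, turned with upper-quartile scaling (0.030), activity and liposome (0.27), 5 (0.0919) or 7 mice per end (0.062), the score over 22 mice (0.065), without the lymph-node-rich mice (0.48), with the lymphocyte mean (0.47), in clodronate mice (0.59), over 17 mice (0.31) and with 3 list means (0.058).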
